A study of Mus musculus with 24 samples.

Results

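Basophils are rare granulocytes of blood, marrow and spleen, and mast cells are their counterparts settled in tissue. Both carry the high-affinity IgE receptor and release histamine and granule proteases when IgE on their surface is cross-linked. The transcription factor Gata2 is needed by both lineages, mature mast cells depend on the stem cell factor receptor Kit, and mature basophils carry little Kit. Here 8 genes of these cells were followed by name in spleen RNA: the proteases Prss34, Mcpt8 and Cpa3, the IgE receptor chain Fcer1a, the receptors Kit and Cd200r3, the histamine-making enzyme Hdc, and Gata2. They are 8 of 55414 genes in the deposited count tables. Bulk RNA cannot tell fewer cells of a type from less RNA per cell.

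All mice were BALB/c, and the protocol describes injection of CT-26, a tumour cell line of mouse colon, into the right side at 8 weeks of age. The labels state no time from injection to collection and no sex. There were 4 spleen RNA libraries titled CT-26 and 4 titled control, with splenocyte as the labelled cell type. The treatment field says the opposite of the titles: libraries titled CT-26 are listed there as healthy and libraries titled control as injected. Both fields give the same sets of 4, so the sets keep their titles, and no difference below is read as tumour against healthy.

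The libraries were shallow for rare cells, with between 735298 and 1152550 counts in the titled CT-26 set and between 907109 and 1970950 in the titled control set. In the titled CT-26 libraries, mitochondrial genes took 32.0% to 41.1% of counts, against 46.2% to 66.1% in the titled control libraries. Levels are given as CPM, counts scaled to a common library total after TMM scaling, so that 1 count was worth between 0.588 and 1.11 CPM. All 8 genes listed as a check for spleen were detected in each library and passed the low-count filter, among them the B cell gene Ms4a1 and the iron exporter Slc40a1 of red pulp macrophages. Of these 8, 7 were lower in titled CT-26 spleens, Ms4a1 with a log2 fold change of -3.93 and Slc40a1 with -2.67.

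The mouse basophil protease Prss34 was the member that differed most. It had 25, 25, 22 and 29 counts in titled CT-26 libraries 1 to 4, against 1, 1, 0 and 3 counts in titled control libraries 1 to 4. These were 21.6, 18.0, 19.2 and 32.2 CPM in the titled CT-26 set, against 1.04, 0.709, 0 and 1.76 CPM in the titled control set. Every titled CT-26 library stood above every titled control library. The log2 fold change was 4.37 ± 0.52 (SE), with a 95% interval of 3.32 to 5.43 and an edgeR quasi-likelihood adjusted p of 7.48e-08. Ordered by signed log2 fold change, highest first, it stood in place 13 of the 6408 genes tested. It entered these filtered genes only through the titled CT-26 libraries, so this place is no support for the difference. Without titled control 4, which held 3 of the 5 titled control counts, the log2 fold change was 4.99. A ratio of pooled counts, 101 against 5, gave 22.1-fold with a counting interval of 9.16 to 69.5.

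Prss34 passed the filter on low counts only through the titled CT-26 libraries, so among filtered genes it had to differ. In the fit of all 18766 genes with any count it had a log2 fold change of 4.44 and an edgeR adjusted p of 3.85e-14. The p-values of that fit rest on spread pooled over genes and do not measure a gene's own spread between libraries. The gene lies at chromosome 17, 25517368 to 25519139 (GRCm39, plus strand, 5 exons), and no other gene of the annotation overlaps it. Within its protease cluster the next genes were near 0: Prss28 had 1 count and Prss29 had 5 over all 8 libraries. The sequencing lane, as named in the file headers, coincided with the sets in part. Lanes 1 and 2 held libraries of both sets, lane 3 only titled CT-26 3, and lane 4 only titled control 2. In lane 1, Prss34 averaged 25.1 CPM in 2 titled CT-26 libraries and 0 CPM in 1 titled control library. In lane 2 it had 21.6 CPM in 1 titled CT-26 library and averaged 1.40 CPM in 2 titled control libraries.

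Mcpt8, the protease that marks mouse basophils most narrowly, was far scarcer. It had 3, 2, 7 and 1 counts in titled CT-26 libraries, against 0, 4, 0 and 1 counts in titled control libraries. The sets overlapped, since titled control 2 stood above 3 of the titled CT-26 libraries. It did not pass the filter, and in the fit of all genes with a count its log2 fold change was 1.53 with a 95% interval of -0.35 to 3.41 (edgeR adjusted p = 0.300). The value ranged from 0.86 without titled CT-26 3 to 3.03 without titled control 2. Its upper limit lies just above the lower limit of Prss34.

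Cpa3, the carboxypeptidase of mast cell granules, which basophils and their precursors also express, passed the filter and was not called. It had 12, 18, 13 and 3 counts in titled CT-26 libraries, against 9, 19, 12 and 2 counts in titled control libraries. The levels were 9.50 ± 4.25 CPM in titled CT-26 spleens and 9.16 ± 5.60 CPM in titled control spleens (SD, n = 4 per set). Library 4 was the lowest of each set and the other libraries of both sets lay between 9.39 and 13.5 CPM. The log2 fold change was 0.16, with a 95% interval of -0.86 to 1.19 (edgeR adjusted p = 0.818), and it was -0.27 without titled control 4.

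**Figure D1:**
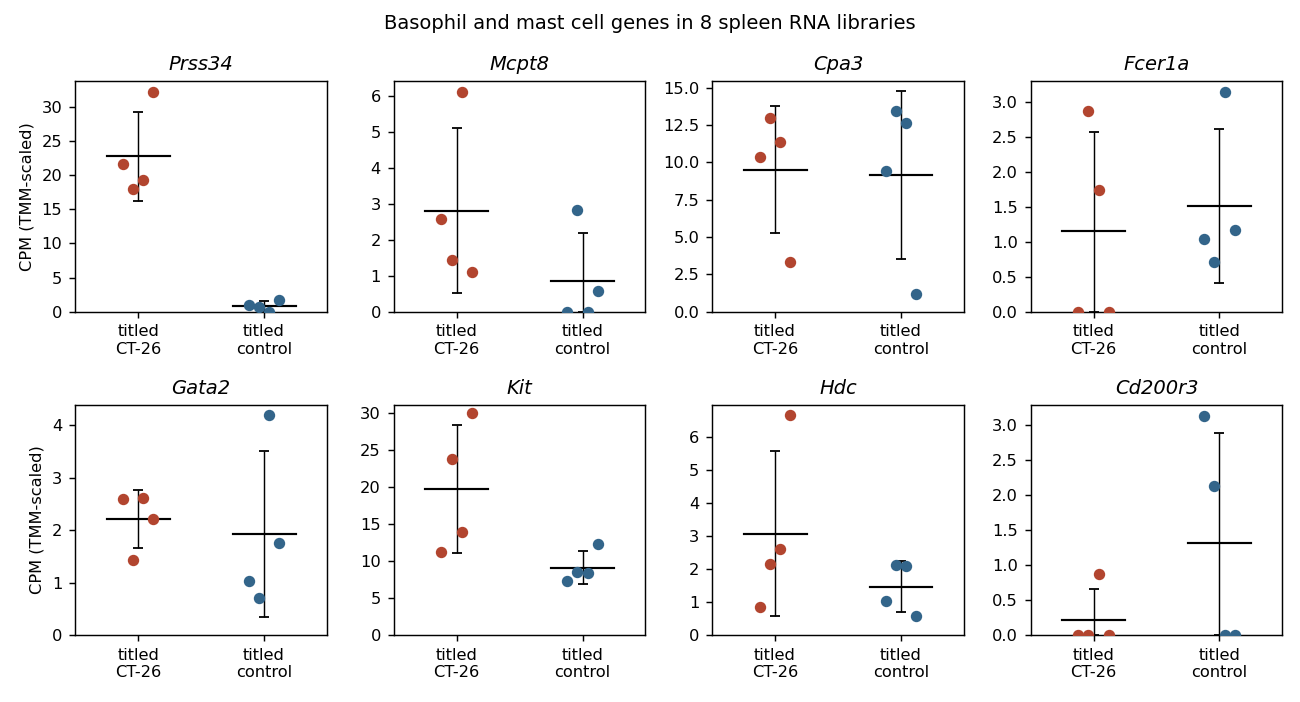
Level of each member in CPM (vertical axes, TMM-scaled, each panel on its own scale) in the 4 titled CT-26 and 4 titled control libraries. Points are libraries, bars are means with SD, and downward bars end at 0. Prss34 is the member whose sets do not overlap.

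The promoters of the 3 proteases and of Cd200r3 are shown because GATA2 binds GATA motifs and because only Prss34 among these genes was called. Whether their fold changes differ from each other was not tested. Each window runs from 250 bases before the transcription start to 50 after it (RefSeq, GRCm38.p6, a different build from the count tables). Sequences read 5′ to 3′ on the gene's strand, and capitals mark GATA motifs, searched as AGATAA or AGATAG or TGATAA or TGATAG on both strands. The windows are chr17:25298144-25298443 (plus strand) for Prss34, chr14:56085148-56085447 (minus strand) for Mcpt8, chr3:20242132-20242431 (minus strand) for Cpa3 and chr16:44943428-44943727 (plus strand) for Cd200r3.
Prss34: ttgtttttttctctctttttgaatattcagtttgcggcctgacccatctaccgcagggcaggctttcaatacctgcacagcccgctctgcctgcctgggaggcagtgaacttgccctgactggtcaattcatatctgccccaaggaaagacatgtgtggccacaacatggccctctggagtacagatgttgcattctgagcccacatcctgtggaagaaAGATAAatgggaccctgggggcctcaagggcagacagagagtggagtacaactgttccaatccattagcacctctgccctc
Mcpt8: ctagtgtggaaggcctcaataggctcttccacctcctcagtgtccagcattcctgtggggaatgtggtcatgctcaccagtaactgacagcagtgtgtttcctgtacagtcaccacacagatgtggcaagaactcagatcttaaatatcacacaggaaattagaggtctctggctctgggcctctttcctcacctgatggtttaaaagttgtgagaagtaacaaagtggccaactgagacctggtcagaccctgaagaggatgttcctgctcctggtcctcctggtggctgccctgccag
Cpa3: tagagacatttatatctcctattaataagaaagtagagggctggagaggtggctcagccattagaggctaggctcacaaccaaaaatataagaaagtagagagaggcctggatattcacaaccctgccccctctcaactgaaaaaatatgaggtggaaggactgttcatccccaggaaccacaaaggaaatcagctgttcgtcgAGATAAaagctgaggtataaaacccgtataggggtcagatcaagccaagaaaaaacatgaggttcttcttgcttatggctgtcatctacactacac
Cd200r3: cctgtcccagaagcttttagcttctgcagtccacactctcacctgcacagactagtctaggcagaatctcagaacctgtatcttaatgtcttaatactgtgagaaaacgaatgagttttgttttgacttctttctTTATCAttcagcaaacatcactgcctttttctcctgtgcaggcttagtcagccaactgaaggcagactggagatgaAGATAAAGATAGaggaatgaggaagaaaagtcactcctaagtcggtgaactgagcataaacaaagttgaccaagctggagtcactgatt

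A match began 31 bases before the start in Prss34, 46 before in Cpa3, and 39 and 33 before in Cd200r3, where 2 matches lie side by side. Cd200r3 had a further match on the other strand, 115 bases before the start. Fcer1a and Hdc held 1 match each, farther upstream, and Mcpt8, Gata2 and Kit held none in these windows. So 5 of 8 members had a match, in 5 of their 10 windows, where 29.8% of 32851 promoter windows of the same length had one. Matches on the gene's strand that began between 50 and 30 bases before the start were found in 3 members and in 1.38% of all windows. This span was chosen after seeing the members, so these shares cannot be compared and show no excess. Of the 3, Prss34 was higher in titled CT-26 spleens, Cpa3 was not called, and Cd200r3 had 1 count in the titled CT-26 set and 6 in the titled control set. No match of the STAT motif TTCNNNGAA was found in any member window, against 8.30% of all windows. The RUNX motif TGTGGT was found in 3 members, in 3 of their 10 windows, and in 16.8% of all windows. The PU.1 motif GAGGAA was found in 4 members, in 5 of their 10 windows, and in 28.3% of all windows.

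Fcer1a encodes the chain of the receptor that binds IgE, and it was near the detection limit in both sets. It had 0, 4, 2 and 0 counts in titled CT-26 libraries, against 1, 1, 3 and 2 counts in titled control libraries. The sets overlapped, with a log2 fold change of -0.11 and a 95% interval of -2.29 to 2.06 in the fit of all genes with a count (edgeR adjusted p = 0.958). The estimate turned to 0.13 without TMM, to 0.27 without titled CT-26 1, to 0.22 without titled CT-26 4 and to 0.39 without titled control 3. The receptor's beta chain Ms4a2 was as scarce, with 8 counts in the titled CT-26 set and 6 in the titled control set. The interval of Fcer1a does not reach the lower limit of 3.32 found for Prss34, although the difference between these members was not itself tested.

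Cd200r3, an activating receptor of mouse basophils and mast cells, had 1 count in titled CT-26 3 and 0 in the other 3 titled CT-26 libraries. In the titled control set it had 3 counts in libraries 1 and 2 and 0 in libraries 3 and 4. A count of 0 allows a level of up to 3 counts, between 2.16 and 3.33 CPM in the titled CT-26 libraries with no count and 3.15 and 1.76 CPM in titled control 3 and 4. The fit of all genes with a count gave a 95% interval of -4.81 to 0.78 for the log2 fold change (edgeR adjusted p = 0.366). No difference was detectable at this depth.

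Kit, the receptor for stem cell factor on mast cells and on blood progenitors, was higher in the titled CT-26 set, with a call that rested on single libraries. It had 13, 33, 16 and 27 counts in titled CT-26 libraries, against 7, 12, 8 and 21 counts in titled control libraries. As levels these were 11.2, 23.7, 14.0 and 30.0 CPM in the titled CT-26 set, against 7.30, 8.50, 8.40 and 12.3 CPM in the titled control set. The sets overlapped, as titled CT-26 1 lay below titled control 4. The log2 fold change was 1.05 ± 0.37 (SE), with a 95% interval of 0.30 to 1.81 and an edgeR adjusted p of 0.0213. Without the titled CT-26 libraries Kit would not have passed the filter. In the fit of all genes with a count it had 1.13 (edgeR adjusted p = 0.0194). Among filtered genes the call ended with lane as a factor (edgeR adjusted p = 0.184) and without titled CT-26 2 (0.0657), titled CT-26 4 (0.0927) or titled control 2 (0.0518). Within lane 1, Kit averaged 26.8 CPM in 2 titled CT-26 libraries and 8.40 CPM in 1 titled control library. Within lane 2, it had 11.2 CPM in 1 titled CT-26 library and averaged 9.82 CPM in 2 titled control libraries.

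Gata2, the lineage factor, had 3, 2, 3 and 2 counts in titled CT-26 libraries, against 1, 1, 4 and 3 counts in titled control libraries. The titled CT-26 values lay within the range of the titled control values. Its log2 fold change was 0.32, with a 95% interval of -1.46 to 2.09 (edgeR on all genes with a count, adjusted p = 0.826). Hdc, which makes histamine from histidine and is also expressed by immature myeloid cells, had 1, 3, 3 and 6 counts in titled CT-26 libraries, against 1, 3, 2 and 1 counts in titled control libraries. The sets overlapped, and the log2 fold change was 1.06 with a 95% interval of -0.69 to 2.81 (edgeR on all genes with a count, adjusted p = 0.463).

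**Figure D2:**
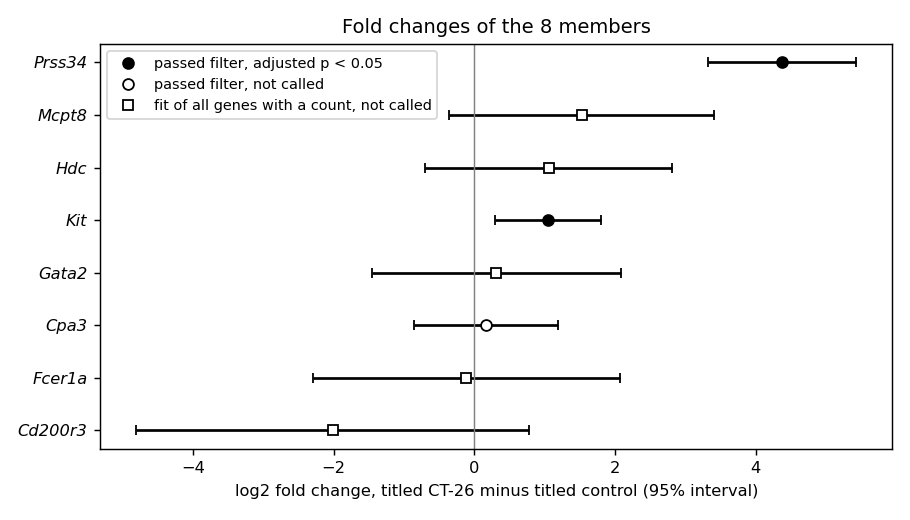
Log2 fold change of each member, titled CT-26 minus titled control (horizontal axis), with its 95% interval. Circles are members that passed the low-count filter and squares are from the fit of all genes with a count. The interval of Prss34, 3.32 to 5.43, overlaps that of Mcpt8 and lies above those of the other 6 members.

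Of the 8 members, 3 passed the low-count filter, and among them Prss34 and Kit were called higher and 0 lower. In the same fit 21.2% of 6408 genes were higher, 21.6% were lower, and 42.8% were called in either direction. In the fit of all genes with a count, 2 of 8 members were higher, where 8.87% of 18766 genes were, and 0 were lower, where 9.17% were. With so few members these counts do not set them apart from the rest of the transcriptome. The sets did not overlap for 1 of 8 members, Prss34, against 18.8% of all genes with a count.

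Levels per kilobase of exon (RPKM, from the same scaled totals) put the members on 1 scale. In titled CT-26 spleens Prss34 led at 18.6 ± 5.30 RPKM (SD, n = 4) and its libraries did not overlap those of Cpa3, the next at 6.26 ± 2.80 RPKM. Cpa3, Mcpt8, Kit, Fcer1a, Hdc and Gata2 followed in that order, and each overlapped the next. Cd200r3 was the lowest at 0.0365 ± 0.0730 RPKM, from 1 count, and the level that a count of 0 allows does not set it apart from Gata2. In titled control spleens Cpa3 led at 6.04 ± 3.69 RPKM and overlapped Fcer1a at 1.52 ± 1.11 RPKM, and Prss34 was in place 5 at 0.720 ± 0.600 RPKM. Each titled control member overlapped the next in order.

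Summed over the 8 members, the level was 61.5 ± 10.9 CPM in titled CT-26 spleens and 26.2 ± 5.60 CPM in titled control spleens (SD, n = 4 per set). Prss34 made up between 28.7% and 43.9% of that sum in titled CT-26 libraries, against 0% to 9.09% in titled control libraries. Without Prss34 the other 7 members summed to 38.7 ± 7.71 CPM in the titled CT-26 set and to 25.4 ± 6.26 CPM in the titled control set, and the sets then overlapped. Most of the difference left was Kit, which averaged 19.7 CPM in the titled CT-26 set and 9.14 CPM in the titled control set. Cpa3 averaged 9.50 CPM and 9.16 CPM. The library numbered 4 of each set had the least Cpa3 and the most Prss34 and Kit of its set. With set means removed, Pearson's r over the 8 libraries was -0.82 between Prss34 and Cpa3 and 0.43 between Prss34 and Kit, across points that share library depth and rest on few counts.

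The other proteases of both clusters had too few counts to pass the filter. Of 9 genes of the tryptase cluster on chromosome 17, Prss34 alone passed the filter. The mast cell tryptase Tpsb2 had 8, 6, 2 and 10 counts in titled CT-26 libraries, against 1, 1, 1 and 3 counts in titled control libraries. In the fit of all genes with a count it was called higher, with a log2 fold change of 2.27 (edgeR adjusted p = 0.0208), and the call ended with lane as a factor and without titled CT-26 1 or 4 or titled control 2. Its paralogue Tpsab1 had 3, 10, 1 and 3 counts in titled CT-26 libraries and 0 in each titled control library. The exact counting interval of its pooled ratio began at 4.51-fold, and it was called in the fit of all genes with a count (edgeR adjusted p = 0.00165). The 2 tryptases are close copies, so the division of reads between them is uncertain.

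The chymase cluster on chromosome 14, which holds Mcpt8, had 0 of 15 genes past the filter and 7 with no count in any library. In the fit of all genes with a count 1 of the 15 was higher and 2 were lower, where 8.87% and 9.17% of all genes were. Ctsg, the cathepsin G gene of neutrophil precursors and mast cells, was the one that was higher, with 1, 16, 16 and 14 counts in titled CT-26 libraries, against 1, 5, 0 and 2 counts in titled control libraries. Its log2 fold change was 2.71 (edgeR adjusted p = 0.000179), or 3.54 without titled control 2, and the call ended with lane as a factor. Gzmb, the granzyme B gene of killer lymphocytes, had 7 counts in the titled CT-26 set and 35 in the titled control set (edgeR adjusted p = 0.0191). That call ended without TMM, with lane as a factor, and without titled CT-26 2, 3 or 4 or titled control 1 or 3. The mast cell chymase Cma1 went the other way from the tryptases, with 0 counts in each titled CT-26 library and 3, 6, 3 and 1 counts in titled control libraries. The exact counting interval of its pooled ratio ended at 0.359 (edgeR on all genes with a count, adjusted p = 0.0144). That call ended with lane as a factor and without titled CT-26 2 or titled control 2. Of 17 further mast cell genes, which include these tryptases and Cma1, 2 passed the filter and 1 was called, the prostaglandin D synthase Hpgds. Other cells also express Hpgds, and it was at -2.18 (edgeR adjusted p = 1.14e-06). It passed the filter only through the titled control libraries. Free of the filter it had -2.10 (edgeR adjusted p = 1.19e-08). In the fit of all genes with a count 3 of the 17 were higher, Tpsb2, Tpsab1 and Ctsg, and 3 were lower, Cma1, Gzmb and Hpgds. Of these 17 genes 4 had no count in any library, among them the mast cell receptor Mrgprb2. Their summed level lay between 376 and 743 CPM in titled CT-26 libraries and between 396 and 991 CPM in titled control libraries, most of it from the granule proteoglycan gene Srgn, which many blood cells express.

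Signals that feed and arm these cells were next. Of 9 growth factors and type 2 cytokines, 0 passed the filter, and Il3, Il5, Il9 and Il13 had no count in any library, which allows up to 3 counts or between 1.76 and 3.33 CPM. Of 11 receptors for them, 5 passed and 2 were higher, Kit and the shared beta chain Csf2rb of the IL-3, IL-5 and GM-CSF receptors. Csf2rb had 53.6, 53.3, 51.5 and 71.0 CPM in titled CT-26 libraries, against 17.7, 24.8, 32.5 and 18.2 CPM in titled control libraries. The sets did not overlap, and its log2 fold change was 1.30 ± 0.26 (SE; edgeR adjusted p = 0.000182). The IL-33 receptor Il1rl1 was not called at 0.77, nor the GM-CSF receptor chain Csf2ra at 0.30. The IL-5 receptor alpha chain Il5ra did not pass the filter and was lower in the fit of all genes with a count, with 0, 0, 1 and 2 counts in titled CT-26 libraries, against 5, 12, 7 and 5 counts in titled control libraries. Its log2 fold change was -2.90 (edgeR adjusted p = 0.00663), or -3.93 without titled CT-26 4, and the call ended without titled CT-26 2. The IL-3 receptor alpha chain Il3ra, used by basophils, had 1 count in all 8 libraries. In the histamine pathway 0 of 7 genes passed the filter.

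Genes that carry the IgE receptor signal moved mostly the other way from Prss34. Of 15 genes of the receptor complex and its first signalling steps, 11 passed the filter, 8 were lower and 1 was higher in titled CT-26 spleens. Over all genes tested 21.6% were lower and 21.2% were higher. The 11 had a median log2 fold change of -0.76, against -0.02 over all genes tested. The adaptors Lcp2 and Lat had -1.42 and -1.28, and the phospholipase Plcg2 had -1.05, not called without TMM. The adaptor Gab2 was the gene that was higher, at 1.60 (edgeR adjusted p = 0.00221). It passed the filter only through the titled CT-26 libraries. In the fit of all genes with a count it had 1.68 (edgeR adjusted p = 0.00172). The count of lower genes fell to 2 when library totals were used without TMM, a scaling under which the median of all genes moved by 0.37 in log2, and to 5 with lane as a factor. The receptor's gamma chain Fcer1g, shared with other Fc receptors and named here after its values were seen, was at -0.76 (edgeR adjusted p = 0.0130), a call lost without TMM, with lane as a factor, and without titled CT-26 2 or 4 or titled control 2. Lymphocytes and macrophages express most of these genes, and the B cell gene Ms4a1 was lower as given above. The part of these cells in the result was not tested.

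Ighe, the constant region gene of IgE, the ligand of this receptor, had 22, 23, 49 and 45 counts in titled CT-26 libraries, against 1, 0, 0 and 4 counts in titled control libraries. Like Prss34, it passed the filter only through the titled CT-26 libraries, and in the fit of all genes with a count its log2 fold change was 4.93 (edgeR adjusted p = 3.57e-20). Among filtered genes it was 4.87 ± 0.59 (SE; edgeR adjusted p = 2.27e-07), or 6.26 without titled control 4 and 4.07 with lane as a factor.

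Of 15 transcription factors of the lineage, 8 passed the filter, 4 were higher and 1 was lower. Over all genes tested 21.2% were higher and 21.6% were lower, and these shares stand beside each list of filtered genes. Gata1, which drives red cell precursors and is also expressed in mast cells, had 88, 305, 228 and 94 counts in titled CT-26 libraries, against 20, 63, 33 and 84 counts in titled control libraries. Its log2 fold change was 1.98 ± 0.32 (SE; edgeR adjusted p = 5.81e-05). Tal1 and Runx1, factors of blood progenitors, had 1.61 and 1.25, and Irf8, a factor of monocytes, dendritic cells and B cells, had -1.15. Of the factors that did not pass, the fit of all genes with a count called 1 higher and 1 lower. Nfil3, a factor of several lymphoid and myeloid lineages, had 28 counts in the titled CT-26 set and 3 in the titled control set (edgeR adjusted p = 0.00165), a call that ended with lane as a factor. The mast cell factor Mitf had 1 count in the titled CT-26 set and 17 in the titled control set (edgeR adjusted p = 0.0262). Mitf was no longer called without TMM, nor with titled CT-26 1, 2 or 4 or titled control 3 left out. Of 23 further basophil genes, 7 passed, 2 were higher and 2 were lower. Those higher were Csf2rb and the chemokine Ccl9 at 1.93, and of those lower the chemokine receptor Ccr3, which basophils and eosinophils share, had -3.75. Ccl9 and Ccr3 would not have passed the filter without the set where each was higher. Free of the filter, Ccl9 had 2.01 (edgeR adjusted p = 2.89e-07) and Ccr3 had -3.67 (edgeR adjusted p = 9.69e-27). In the fit of all genes with a count the leukotriene enzyme Alox5 was also higher, with 32 counts in the titled CT-26 set and 2 in the titled control set, both in titled control 2. In that fit 3 of the 23 genes were higher and 3 were lower, where 8.87% and 9.17% of all genes were. The chemokine genes Ccl3 and Ccl4 were among the lower ones. Ccl3 had 1 count in the titled CT-26 set and 27 in the titled control set (edgeR adjusted p = 0.00115), and the call ended with lane as a factor. The log2 value was -4.07, and leaving out titled CT-26 2 made it -5.67. Ccl4 had 8 counts in the titled CT-26 set and 34 in the titled control set (edgeR adjusted p = 0.0215), a call that ended with DESeq2, without TMM, with lane as a factor, and without titled CT-26 2, 3 or 4 or titled control 1 or 3. Of 5 genes of the CD200 family 1 passed, Cd200 itself, at -0.44 and not called, and Cd200r1, with 5 counts in the titled CT-26 set and 35 in the titled control set, was lower in the fit of all genes with a count (edgeR adjusted p = 0.00833, lost with lane as a factor).

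**Figure D3:**
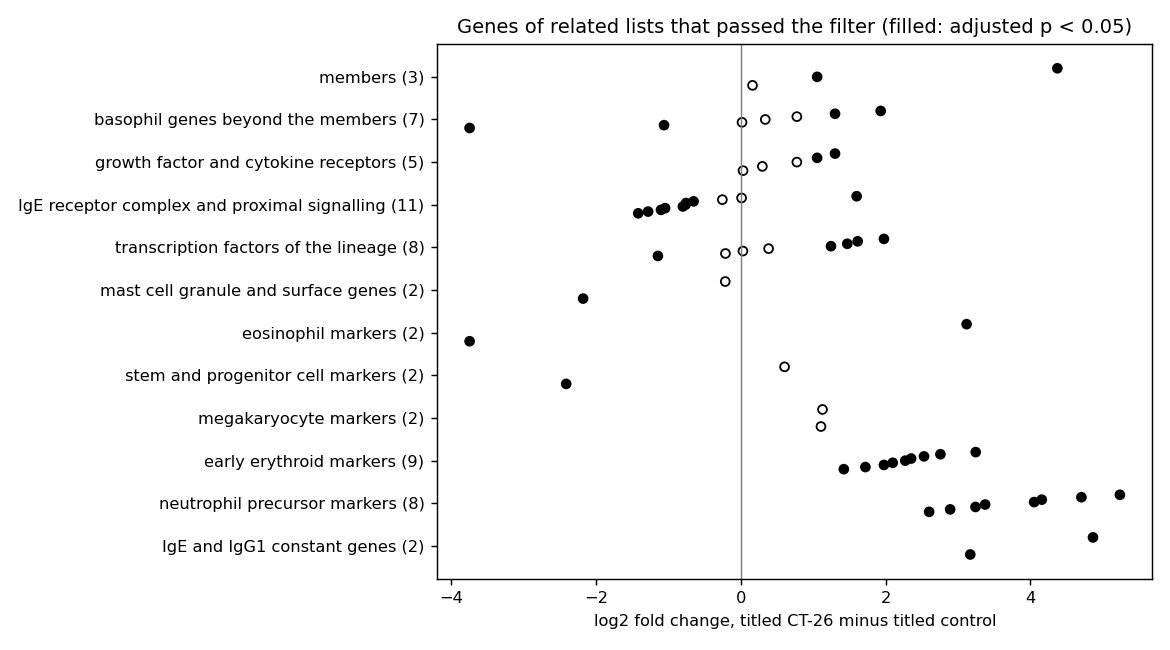
Log2 fold change, titled CT-26 minus titled control (horizontal axis), of the genes that passed the filter in each list, with their number in brackets. Filled points have an edgeR adjusted p under 0.05. The erythroid and neutrophil precursor genes lie to the right, and most genes of IgE receptor signalling lie to the left. Most neutrophil precursor genes shown passed the filter only through the titled CT-26 libraries, so their side was favoured in advance. The same holds for some genes of other lists and the set where each was higher.

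Kit, Gata2, Hdc and Cpa3 are also expressed by other blood cells, so the markers of those cells stand here beside them. All 9 early erythroid markers passed and were higher, where 21.2% of all genes tested were. They summed to 2182 to 4278 CPM in titled CT-26 libraries, against 628 to 767 CPM in titled control libraries. Among them were Aqp1 at 3.25 and Rhag at 2.53. Of 9 neutrophil precursor markers all 9 were higher in the fit of all genes with a count, where 8.87% of genes were. Most of the 8 that passed the filter did so only through the titled CT-26 libraries. The 9 summed to 1501 to 4034 CPM in titled CT-26 libraries and to 183 to 355 CPM in titled control libraries. Among them Prtn3 had 4.78 in the fit of all genes with a count and 4.71 among filtered genes. Of 12 stem and progenitor markers 2 were higher and 2 were lower in the fit of all genes with a count. The 2 that passed the filter were Cd48, which lymphocytes share, at -2.41, and the factor Myb at 0.60. Myb was not called in the main fit, but was called without TMM and without titled control 3. The 12 summed to 64.8 to 98.6 CPM in titled CT-26 libraries and 117 to 155 CPM in titled control libraries. Cd48 alone averaged 17.0 CPM in the titled CT-26 set and 91.8 CPM in the titled control set. These sums therefore do not give the direction of the other markers. Of 8 megakaryocyte markers 2 passed and 0 were called, Pf4 having 1.11, which was called in 7 alternatives, while 5 of the 8 were higher in the fit of all genes with a count, with sums of 25.1 to 162 CPM in titled CT-26 libraries and 14.9 to 78.2 CPM in titled control libraries. None of these lists had a marker at 0 in all libraries. Their part in the difference of Kit was not tested.

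Eosinophils share growth factors with basophils, and their markers were split. The granule protein gene Prg2, also found in basophil and mast cell precursors, had 294, 486, 888 and 476 CPM in titled CT-26 libraries, against 88.7, 81.5, 46.2 and 31.7 CPM in titled control libraries. Its log2 fold change was 3.12 ± 0.37 (SE; edgeR adjusted p = 8.01e-06). The eosinophil peroxidase gene Epx had 19 counts in the titled CT-26 set and 2 in the titled control set, and was called in the fit of all genes with a count (edgeR adjusted p = 0.0122) but not with lane as a factor or without titled CT-26 4. The receptor Ccr3 had 7.77, 4.32, 6.99 and 4.44 CPM in titled CT-26 libraries, against 101, 91.4, 90.3 and 41.1 CPM in titled control libraries. The eosinophil marker Il5ra was lower, as given above, so that 2 of the 10 markers were higher and 2 were lower in that fit. The 10 eosinophil markers summed to between 308 and 920 CPM in titled CT-26 libraries, against 87.0 to 212 CPM in titled control libraries, and Prg2 carried that sum. Without Prg2 the other 9 summed to between 14.7 and 35.5 CPM in titled CT-26 libraries, against 55.2 to 133 CPM in titled control libraries. None was at 0 in all libraries, and their part in the difference of Prss34 was not tested. Of 8 markers of type 2 lymphocytes 0 passed and 4 had no count.

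The genes whose pattern within the sets was most like the summed level of Prss34 and Mcpt8 were Csnk1a1, Trmt112, Pbx2, Nkapd1 and Lin7c. Their Pearson's r, over the 8 libraries with set means removed, lay between 0.88 and 0.92 among 2844 genes compared, and these are the highest of many values from few libraries.

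**Figure D4:**
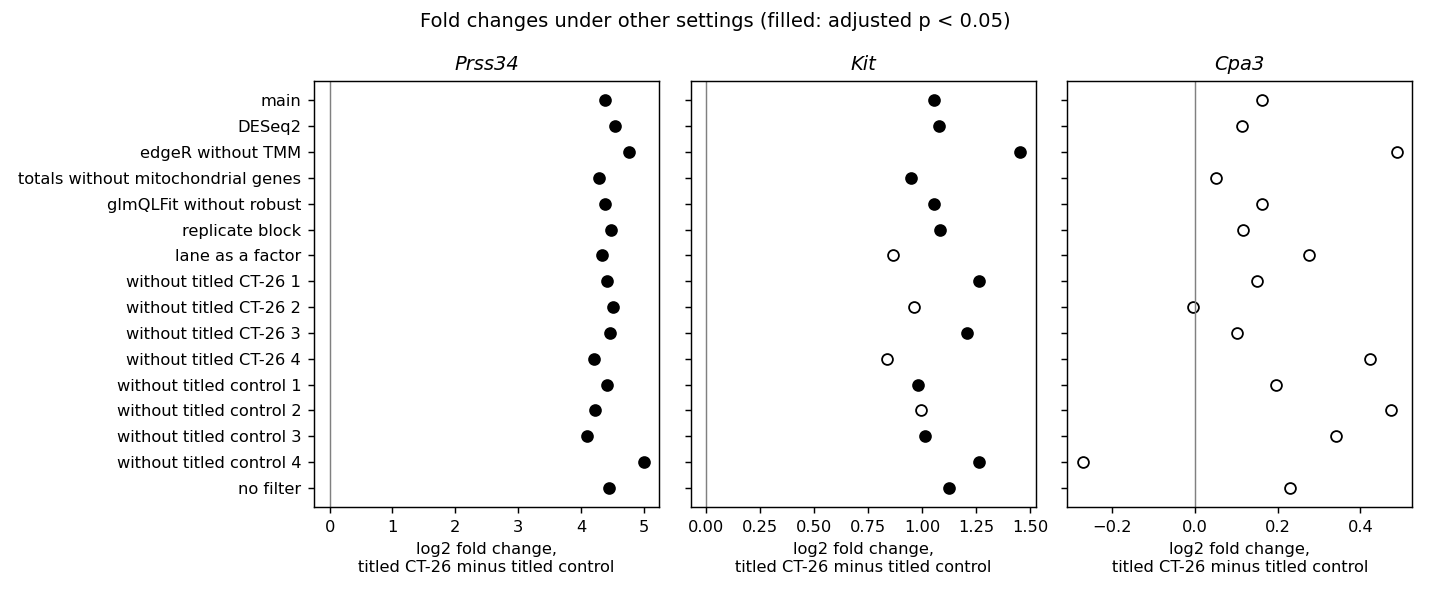
Log2 fold change of the 3 members that passed the filter, titled CT-26 minus titled control (horizontal axes, each on its own scale), for the main setting and each alternative (rows). Filled points have an adjusted p under 0.05. Prss34 stays between 4.09 and 4.99, Kit loses its call in 4 rows, and Cpa3 lies on both sides of 0. Except for the row without the filter, rows use filtered genes, which Prss34 entered only through titled CT-26 libraries.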

How the data were processed

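Each deposited RNA table holds the counts of 1 library, whole fragments per gene. Per the file headers, featureCounts 2.0.1 assigned fragments to GENCODE M29 genes and ignored strand. Per the submitters' processing notes, Trimmomatic 0.39 and STAR 2.7.10a were used, and GRCm39 and GRCm38 are listed as builds. Coordinates of genes are those of the tables, and no annotated gene shares exon bases with a member. Symbols were matched for 52081 of 55414 genes. The receptor tables of the series were not used.

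Genes were filtered with filterByExpr (minimum count 10), given TMM factors, and compared over 8 libraries by the quasi-likelihood test of edgeR with robust dispersions, titled CT-26 minus titled control, with Benjamini-Hochberg adjustment at 0.05. Genes that did not pass the filter were taken from the same test on all 18766 genes with a count, adjusted over all of them. SE and 95% intervals come from the F statistic, and exact intervals of pooled counts cover counting error only. The labels do not say that libraries are separate animals, so p-values of the filtered fit measure the spread between these samples. In the fit of all genes with a count, the intervals of the members taken from it were those of unlimited degrees of freedom. There the spread was pooled over genes, so its p-values do not measure a gene's own spread between libraries. They can be far smaller: Prg2 had an edgeR adjusted p of 9.51e-37 there, against 8.01e-06 among filtered genes. Libraries of a set differed beyond sampling noise (lowest chi-square per degree of freedom 3.70).

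The members and lists were chosen with earlier results of these data known. Up to 4 genes of smallest p per list were named, besides genes said to be otherwise chosen or named from the fit of all genes with a count. Genes of like pattern had a mean log2 CPM of at least 5, with a pseudocount of 1 for the members' sum. The test was checked on simulated counts of 6408 genes, 200 of them changed by known folds. It found 46.9% of 2-fold and 98.0% of 4-fold changes, and 9 of its 152 calls were false. A gene that was not called may therefore have changed by 2-fold. Versions were edgeR 4.0.16 and DESeq2 1.42.0 under R 4.3.3, and pandas 2.3.3 under Python 3.11.15.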

Additional observations from a re-analysis of the deposited data

Results flagged for a closer look

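By a test for a value far from the others of its set, 2 of 34 sets of 4 libraries had such a library, where chance gives about 1 in 20. Titled CT-26 4 had 71.0 CPM of Csf2rb, against 51.5 to 53.6 CPM in the other titled CT-26 libraries. Titled CT-26 3 had 0.873 CPM of Cd200r3, which is 1 count, where the other 3 titled CT-26 libraries had 0.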

How the results depend on the processing

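The values were recomputed with DESeq2, without TMM, with totals that leave out mitochondrial genes, without robust dispersions, with a replicate block, with lane as a factor, without the filter, and with each library left out. Prss34 kept its direction and call in all 15 alternatives, between 4.09 and 4.99, with edgeR and DESeq2 adjusted p from 3.85e-14 to 4.32e-06. Apart from the fit without the filter, at 4.44, these used filtered genes, which Prss34 entered only through titled CT-26 libraries. The number of members called higher was 1 in place of 2 with lane as a factor, and 1 to 2 with a library left out. With lane as a factor, titled CT-26 3 and titled control 2, each alone in its lane, added nothing to the comparison of sets. Whether a call ended there through lane or through fewer libraries was not tested. Genes lower numbered 730 in place of 1384 without TMM, and genes of IgE receptor signalling that were lower numbered 2 without TMM and 5 with lane as a factor. Members and list genes that were not called changed sign as follows. With a library left out, Cpa3 ranged from -0.27 to 0.47, Fcer1a from -1.01 to 0.39 and Csf2ra from -0.035 to 0.48. Without TMM Fcer1a was 0.13, and with lane as a factor Gata2 was -0.18 and Il1rl1 was -0.025. The cause of these changes was not tested. Libraries of equal number did not deviate together (r from -0.091 to 0.076, with 2 of 8 libraries closest to their own number), so the numbers were not taken as pairs. With the replicate block Prss34 had 4.48 and an edgeR adjusted p of 1.49e-07, and the call of Mitf ended (edgeR adjusted p = 0.0564). Depth limits the 5 members that did not pass the filter, whose sums were 1 to 13 counts per set.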
